A study of Zea mays with 2 samples.

Results

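The dominant transcripts of maize endosperm are described here, taken as the entries with at least 1000 RPKM in the wild-type library. They number 91 of 56848 entries and lie on 86 of 50685 loci. RPKM are reads scaled to length and to library size, so levels of different entries can be compared per length. An entry is 1 row of the deposited tables and is identified by a chromosome, a start and an end alone, without a gene name, and several entries can share a locus. Endosperm of kernels with the genotype dek37 was sampled at 18 days after pollination (1 library, 19106174 reads), as was endosperm of WT kernels (1 library, 18139532 reads). Both read totals were inferred from the RPKM values, as described below. The dek37 allele, the inbred background and the number of kernels or plants behind each library are not stated in the labels. With 1 library per genotype there is no replicate check and no test: every difference below is between 2 libraries. The WT level chose the entries, and high values of 1 library tend to be lower in another, so counts of lower entries are descriptions and nothing is read from them. Positions are 1-based, on a genome build that is not given, and whether they fall in exons, introns or UTRs was not analysed here. Without names, the tissue label could not be set against marker genes.

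As background, the starchy endosperm of a maize kernel fills with starch and with zeins, the storage proteins of the grain, and a small number of gene families supplies much of its messenger RNA at this stage. Many zein genes are short, lack introns and stand in clusters of near-identical copies, so that reads are hard to assign to single copies. DEK37 is known as a pentatricopeptide repeat protein of mitochondria, needed for the splicing of a mitochondrial transcript, and its loss gives small, defective kernels. Which of the entries below are zein genes was not determined.

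The dominant entries made up a smaller part of the mutant transcriptome. Together they held 23.6% of the summed RPKM in dek37 and 47.6% in WT. The 10 highest WT entries held 9.17% in dek37 and 26.1% in WT. The mutant library was also the less concentrated when each library was ranked by its own levels: 25% of the summed RPKM was reached by the top 90 entries in dek37 and by the top 10 in WT, and 50% by 1034 entries in dek37 and 134 in WT. In bulk endosperm, fewer cells of a type and less RNA per cell cannot be told apart.

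**Figure D1:**
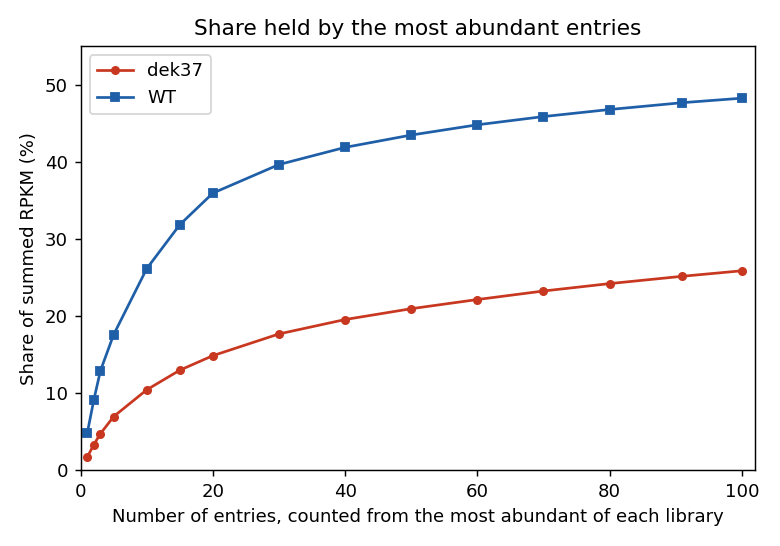
Share of the summed RPKM (%) held by the most abundant entries, each library ranked by its own levels, for dek37 (circles) and WT (squares). The top 91 entries held 25.1% in dek37 and 47.6% in WT, and the first 10 entries held 10.4% in dek37 and 26.1% in WT.

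On the deposited scale the smaller share lay mostly with entries that were about 3-fold lower, a range whose members depend on the scaling. Differences are log2(RPKM + 1) in dek37 minus the same in WT. Of the 91 entries, 33 were between 2.5-fold and 4-fold lower in dek37, a range that held 1.20% of the 17017 entries above a floor of 10 RPKM in the higher library. With the median difference of those entries set to 0, and under both other scalings tried, this range held 21 of the 91. On the deposited scale the 33 entries held 13.1% of the summed RPKM in dek37 and 37.1% in WT. They were grouped by their own difference, so that their share was smaller in dek37 follows from the grouping. The other 58 entries jointly held 10.5% in dek37 and 10.6% in WT. They are what the same grouping left, with most of the lowest entries taken out and all of the higher ones kept. Nothing is therefore read from that near balance, and the share of the rest under the other scalings is not given here. Among the 58, 16 were higher and 42 lower in dek37. The 19 entries that were 1.5 to 2.5-fold lower held 2.57% in dek37 and 4.24% in WT. The 5 that were more than 4-fold lower held 0.240% in dek37 and 1.10% in WT. Against these, the 6 that were at least 2-fold higher held 2.52% in dek37 and 0.787% in WT.

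**Figure D2:**
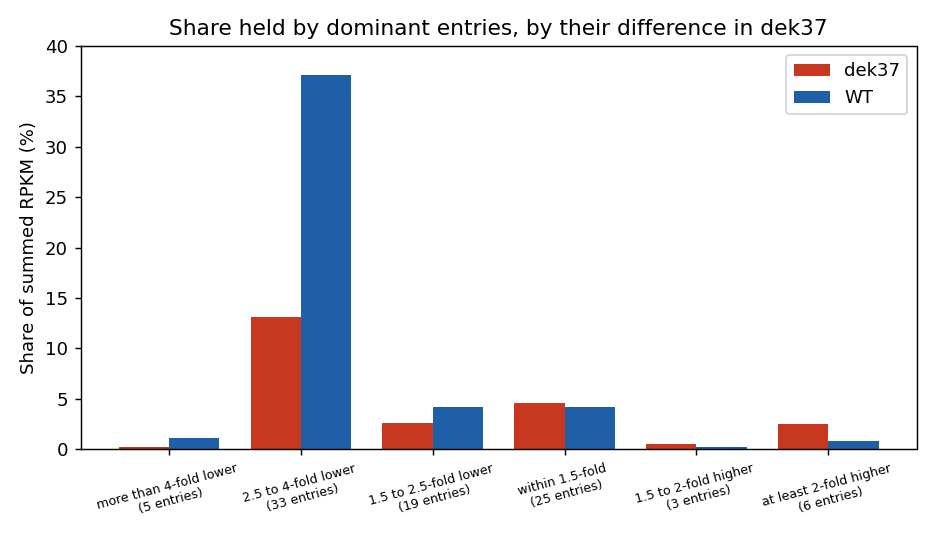
Share of the summed RPKM (%) held by the dominant entries, grouped by the size of their difference, with dek37 bars left of WT bars. The 33 entries that were 2.5 to 4-fold lower held 13.1% in dek37 and 37.1% in WT, and the 6 entries that were at least 2-fold higher held 2.52% in dek37 and 0.787% in WT.

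Over all 91 entries, 75 were lower and 16 higher in dek37, where 77.3% of the entries above the floor were higher. At least 2-fold lower were 43 (3.07% of the entries above the floor), and 6 were at least 2-fold higher (14.8% of them). A further 25 stayed within 1.5-fold, as did 58.8% of the entries above the floor. The median difference was -0.93, with a range from -2.86 to 2.34, beside a median of 0.39 over the 17017 entries. An entry can pass that floor through its dek37 level alone. Over all 56848 entries the median was 0.15, with 33335 higher, and over those of 300 to 1000 RPKM in WT it was 0.12. Shares of a library add up to 100%, so a smaller share of the 91 entries is a larger share of the rest. The rest held 76.4% in dek37 and 52.4% in WT. Of the 25 entries within 1.5-fold, 24 lay below the median of 0.39. When RPKM were rescaled so that the median difference was 0, 56 of the 91 entries were lower by at least 2-fold, and 2 were higher by as much. Choosing entries by 1000 RPKM in dek37 gave a list of 90, with 26 at least 2-fold lower, 17 at least 2-fold higher, and a median of -0.17.

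**Figure D3:**
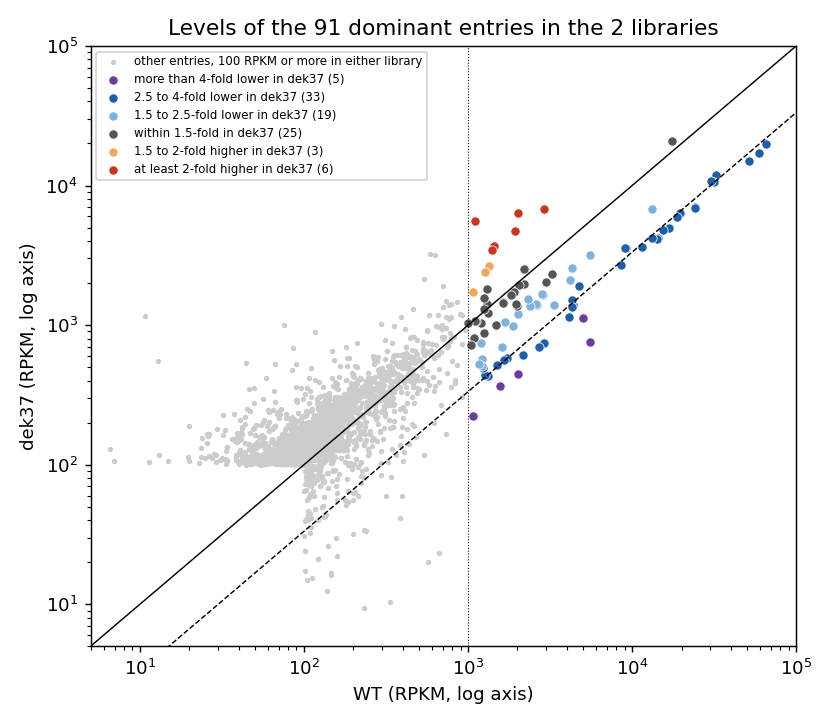
RPKM in dek37 against RPKM in WT on log axes, with the 91 dominant entries coloured by the size of their difference, and in grey the other entries with at least 100 RPKM in either library, whose lower edges are set by that limit. The solid line marks equal levels, the dashed line a level 3-fold lower in dek37, and the dotted line the 1000 RPKM that chose the entries. Nearly all entries above 10000 RPKM in WT follow the dashed line.

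Grouped by WT level, the highest entries had the lowest median difference. The WT level sets these classes and also enters the difference, so nothing is read from that order. Of the 18 entries with at least 10000 RPKM in WT, 16 were at least 2-fold lower, all of them between 2.5-fold and 4-fold. The median difference of the 18 was -1.68, with a range from -1.81 to 0.24. Among the 16 entries of 3000 to 10000 RPKM, all were lower, 11 of them at least 2-fold, with a median of -1.36. The 57 entries of 1000 to 3000 RPKM were mixed, with 16 at least 2-fold lower, 6 at least 2-fold higher and a median of -0.52. The next class down, the 263 entries of 300 to 1000 RPKM in WT, had a median of 0.12, with 28 (10.6%) lower by at least 2-fold and 13 (4.94%) higher by as much.

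The leading entry, at chromosome 6, 44381573 to 44382522, had 19769 RPKM in dek37 and 65773 RPKM in WT, which is a factor of 3.33 (counting interval 3.30 to 3.35). It was second in dek37 and alone held 1.63% of the summed RPKM in dek37 and 4.80% in WT. Second in WT was chromosome 2, 183342461 to 183343536, with 17221 RPKM in dek37 and 59613 RPKM in WT, and a factor of 3.46 (3.43 to 3.50). The next was chromosome 7, 18856739 to 18857460, with 14974 RPKM in dek37 and 51613 RPKM in WT, which is a factor of 3.45 (3.42 to 3.48). These 3 loci lie on different chromosomes, and their factors lay between 3.33 and 3.46. Counting intervals are exact 95% (Clopper-Pearson) intervals on fragments read back from the values. They cover counting error only and say nothing of the spread between kernels.

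Chromosome 4 gave the next levels. The entry at 5140555 to 5141628 had 11962 RPKM in dek37 and 32408 RPKM in WT, which is a factor of 2.71 (counting interval 2.69 to 2.73). Another, at 159507898 to 159508226, had 10606 RPKM in dek37 and 31725 RPKM in WT, which is a factor of 2.99 (2.94 to 3.04). The entry at 5089369 to 5090254 had 10772 RPKM in dek37 and 30455 RPKM in WT, which is a factor of 2.83 (2.80 to 2.85). These 3 factors lay below those of the 3 leading entries, and no interval of one set met an interval of the other. Since the intervals hold counting error alone, whether the factors would differ in other kernels was not tested.

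The 10 highest were completed by a pair on chromosome 7 with almost the same WT level, an entry on chromosome 10 and a further one on chromosome 7. At 18768582 to 18769307 the levels were 7033 RPKM in dek37 and 24166 RPKM in WT. At 18943733 to 18944704 they were 6876 RPKM in dek37 and 24166 RPKM in WT. Both stood about 3.5-fold apart, at factors of 3.44 and 3.51. Chromosome 10, 113152065 to 113153572, had 6365 RPKM in dek37 and 19642 RPKM in WT (factor 3.09), and chromosome 7, 172591202 to 172591987, had 5913 RPKM in dek37 and 18740 RPKM in WT (factor 3.17). All 10 kept a high place in the mutant, between rank 2 and rank 14.

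Dominant loci were spread over all 10 chromosomes, with from 3 loci on chromosome 10 to 13 on chromosome 1 and 13 on chromosome 7. A single entry lay on the sequence that the files call UNKNOWN, and none was mitochondrial or chloroplast. Per listed locus they were densest on chromosome 7, where 0.321% of 4052 loci were dominant, and sparsest on chromosome 10, with 0.0852% of 3520. The dominant entries of chromosome 7 held 5.05% of the summed RPKM in dek37 and 12.6% in WT. On chromosome 5 alone was the joint share higher in the mutant, at 1.35% in dek37 and 0.705% in WT. That chromosome held 2 of the 6 entries that were at least 2-fold higher.

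Of the 86 loci, 23 (26.7%) had another dominant locus within 1 Mb, in 7 groups. The like share among loci of other levels was not computed, so 26.7% is a description and not a measure of clustering. The 25 entries of these groups held 8.27% of the summed RPKM in dek37 and 22.4% in WT. Among them, 20 were lower by at least 2-fold and none was higher by as much, with a median of -1.64. The 66 entries outside the groups had 23 at least 2-fold lower, 6 at least 2-fold higher and a median of -0.74. The 2 sets also differed in WT level, with medians of 5502 RPKM in groups and 1925 RPKM outside. Loci of 1000 bp or less made up 69.6% in groups and 23.8% outside. Grouping was therefore not separated from level or span. Entries about 3-fold lower were found in both settings, 17 of them in groups and 16 alone, with medians of -1.68 and -1.64. Neighbours can be similar copies, and the labels do not say where reads matching several copies went, so their values may not be independent.

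The largest group lay on chromosome 7, where 7 loci with 8 entries stood within 199.8 kb. In order along the chromosome, the first began at 18744943 and had 4206 RPKM in dek37 and 13137 RPKM in WT. The second, at 18768582, is given above, and the third, at 18778882, had 4787 RPKM in dek37 and 15367 RPKM in WT. These 3 loci are 725 or 726 bp long, and the leading locus of the group, 722 bp long, follows at a distance of 111.8 kb from the start. The fifth locus, at 18869059, spans only 329 bp and had 612 RPKM in dek37 and 2159 RPKM in WT. The sixth, at 18912149, is the longest with 1889 bp and had 3597 RPKM in dek37 and 11503 RPKM in WT. The last locus holds a second, lower entry, with 521 RPKM in dek37 and 1504 RPKM in WT. Over this 34-fold range of WT levels the differences stayed between -1.82 and -1.53. The 1 other entry inside that passed the floor, at 18926316 to 18926553, had 82.9 RPKM in dek37 and 129 RPKM in WT, which is a difference of -0.63.

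**Figure D4:**
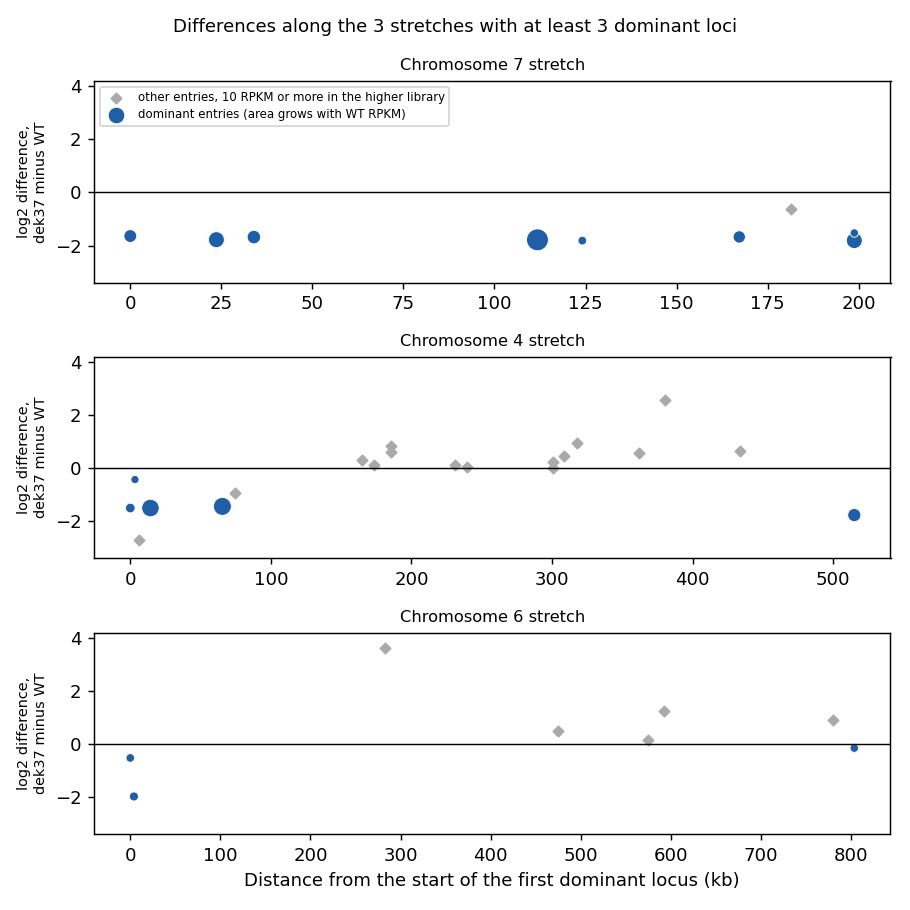
Difference in log2(RPKM + 1), dek37 minus WT, along the stretches of chromosomes 7, 4 and 6 that hold at least 3 dominant loci, against the distance (kb) from the start of the first dominant locus. Circles are dominant entries, with an area that grows with WT RPKM, and grey diamonds other entries above the floor of 10 RPKM. All 8 dominant entries of chromosome 7 lie between -1.82 and -1.53, while those of chromosome 6 run from -1.98 to -0.15.

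The chromosome 4 group had 5 loci within 516 kb. Its first locus, 5075029 to 5076097, had 1518 RPKM in dek37 and 4297 RPKM in WT, which is a difference of -1.50. The second begins only 3.31 kb from the start of the first, at 5078343, and had 810 RPKM in dek37 and 1088 RPKM in WT, which is a difference of -0.43. So close neighbours of almost equal span, 1069 bp and 1077 bp, differed in how far they were lower. The last locus, 5590104 to 5591069, stands 448 kb beyond the others and had 4156 RPKM in dek37 and 14135 RPKM in WT (-1.77). Between the dominant loci lay 15 other entries with at least 10 RPKM, of which 13 were higher in dek37, with a median of 0.32. An exception stood at 5081480 to 5082435, within the first cluster of loci, with 2.96 RPKM in dek37 and 24.96 RPKM in WT (-2.71).

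On chromosome 6 the group was uneven. The locus at 39088029 to 39088716 had 1378 RPKM in dek37 and 1984 RPKM in WT (-0.52), and the next, at 39092081 to 39092901, had 739 RPKM in dek37 and 2913 RPKM in WT (-1.98). The third locus, 799 kb away, held 2 entries that differed little, with 1954 and 1636 RPKM in dek37, against 2188 and 1818 RPKM in WT. Neighbouring loci of this stretch thus did not share 1 difference.

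The remaining groups were pairs. On chromosome 3, 81328055 to 81328694 had 4177 RPKM in dek37 and 14304 RPKM in WT (-1.78), and 81331965 to 81332317, a 353 bp locus beginning 3.91 kb further on, had 1123 RPKM in dek37 and 4993 RPKM in WT (-2.15). On chromosome 4, the 206 bp locus at 159481912 had 2676 RPKM in dek37 and 8499 RPKM in WT (-1.67), next to the entry at 159507898 given above (-1.58). Both of these pairs were lower throughout and enclosed no other entry. On chromosome 1, loci of 723 bp and 726 bp differed most among these pairs: 161774740 to 161775462 had 1897 RPKM in dek37 and 4750 RPKM in WT (-1.32), whereas 161990941 to 161991666 had 756 RPKM in dek37 and 5502 RPKM in WT (-2.86). The second pair of chromosome 3 also split, with 697 RPKM in dek37 and 1612 RPKM in WT at 146089792 (-1.21), and 1040 RPKM in dek37 and 1003 RPKM in WT at 146602562 (0.05).

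Dominant loci were shorter than other expressed loci, and the short ones were lower most often. Their median span was 1432 bp, against 2750 bp for loci of the 300 to 1000 RPKM class and 3624 bp for all loci with an entry of at least 10 RPKM. Spans of 1000 bp or less made up 31 of the 86 loci (36.0%), 13.6% of the loci in the class below and 14.1% of the loci with at least 10 RPKM. Span enters RPKM only through the length behind it, but a short length can raise RPKM, so span is not independent of the choice of entries. Of the 32 entries on loci of 1000 bp or less, 28 were lower by at least 2-fold and 1 was higher by as much, with a median difference of -1.66. Entries on spans over 1000 and up to 2000 bp numbered 26, with 11 at least 2-fold lower and a median of -0.90. On spans over 2000 bp there were 33 entries, of which 4 were at least 2-fold lower and 3 higher by as much, with a median of -0.47.

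Short and high entries were largely the same ones, so both were looked at together. At 1000 to 3000 RPKM in WT, 8 of 11 entries on spans of 1000 bp or less were at least 2-fold lower (median -1.58), against 3 of 29 on spans over 2000 bp (median -0.18). At 10000 RPKM or more, the 12 short entries had a median of -1.74 and the 6 entries on spans over 1000 and up to 2000 bp one of -1.53. In the class of 300 to 1000 RPKM, 6 of 36 entries on short spans were at least 2-fold lower (median -0.21), 13 of 48 on spans over 1000 and up to 2000 bp (median -0.07), and 9 of 179 on spans over 2000 bp (median 0.19). In that class the middle spans held the highest share of entries at least 2-fold lower, and the short spans the lowest median.

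**Figure D5:**
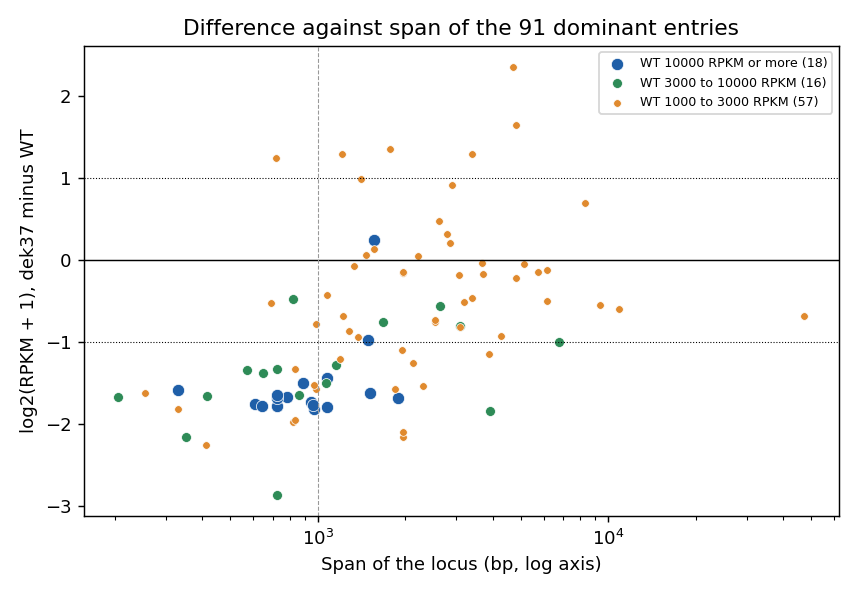
Difference in log2(RPKM + 1), dek37 minus WT, against the span of the locus (bp, log axis) for the 91 dominant entries, coloured by WT level. Of the 32 points left of the dashed line at 1000 bp, 31 lie below 0, and 28 lie below the dotted line at -1.

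The 16 solitary entries that were about 3-fold lower ranged in WT from 1228 to 65773 RPKM. They include 4 on chromosome 6 besides the leading one. Those at 11754785 to 11755390 and 10128856 to 10129425 had 4974 and 3541 RPKM in dek37, against 16717 and 9010 RPKM in WT, with differences of -1.75 and -1.35. The third, at 121390345 to 121391179, had 697 RPKM in dek37 and 2708 RPKM in WT (-1.96). The last of them, at 70571472 to 70572460, had 582 RPKM in dek37 and 1738 RPKM in WT (-1.58), so that the 4 ran over a wide range of levels. The entry on the UNKNOWN sequence, 15941 to 16590, had 3538 RPKM in dek37 and 9230 RPKM in WT (-1.38). Longer loci were rare among the 33: 2 had spans over 2000 bp. Of these, chromosome 9, 23256308 to 23260236, had 1146 RPKM in dek37 and 4098 RPKM in WT (-1.84), and chromosome 10, 109894340 to 109896644, had 435 RPKM in dek37 and 1262 RPKM in WT (-1.53).

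More than 4-fold lower were 5 entries on 4 loci (0.729% of the entries with at least 10 RPKM). The largest difference downward was that of chromosome 1, 161990941 to 161991666, given above, a factor of 7.27 (counting interval 7.07 to 7.49). At chromosome 1, 15414787 to 15415199, the levels were 222 RPKM in dek37 and 1065 RPKM in WT, which is a factor of 4.79 (3.79 to 6.12). That wide interval rests on the smallest read numbers that fit, 174 in dek37 and 792 in WT, and the entry stood at rank 709 in dek37, the lowest place of any of the 91. Both entries of the locus at chromosome 2, 20765568 to 20767537, belong here, with 450 and 367 RPKM in dek37, against 2008 and 1568 RPKM in WT. The fifth is the 353 bp locus of chromosome 3. None of the 5 had over 5502 RPKM in WT, so none was in the highest class.

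A further 19 entries were 1.5 to 2.5-fold lower (4.38% of the entries with at least 10 RPKM), from -1.28 to -0.59. The highest of them, chromosome 2, 160150779 to 160152270, had 6752 RPKM in dek37 and 13227 RPKM in WT, which is a factor of 1.96. It was the only one of the 18 entries above 10000 RPKM with an intermediate difference. The longest dominant locus, at chromosome 5, 159683411 to 159730650 (47240 bp), was also here, with 744 RPKM in dek37 and 1195 RPKM in WT (-0.68).

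The 25 entries within 1.5-fold had levels of 724 to 20708 RPKM in dek37 and 1003 to 17534 RPKM in WT. The most abundant was the entry at chromosome 1, 178476591 to 178478157, with 20708 RPKM in dek37 and 17534 RPKM in WT (0.24), which stood at rank 1 in dek37 and rank 11 in WT. Its ratio was 1.18, with a counting interval of 1.17 to 1.19 that does not hold equal levels. The second entry of that locus had 1422 RPKM in dek37 and 1301 RPKM in WT (0.13), so both were slightly higher. Closest to no difference were chromosome 1, 253796237 to 253799897, with 1075 RPKM in dek37 and 1100 RPKM in WT (-0.03), and chromosome 3, 126459904 to 126465045, with 1078 RPKM in dek37 and 1115 RPKM in WT (-0.05). Next came chromosome 3, 146602562 to 146604776, given above (0.05), and chromosome 4, 36305736 to 36307195, with 1296 RPKM in dek37 and 1248 RPKM in WT (0.05). Those 4 were also the ones whose counting interval held equal levels, with intervals taken on the smallest read numbers that fit. Larger read numbers also fit all 4 and would give narrower intervals, so whether equal levels lie inside is not settled. Each of the 4 lay below the median of 0.39 over the entries above the floor, and below that of 0.15 over all entries.

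At least 2-fold higher in dek37 were 6 entries, each at 2891 RPKM or less in WT. The largest difference upward was at chromosome 9, 22100864 to 22105552, with 5571 RPKM in dek37 and 1096 RPKM in WT, which is a ratio of 5.08 (counting interval 4.99 to 5.18). Chromosome 5, 181520274 to 181525066, had 6305 RPKM in dek37 and 2012 RPKM in WT, which is a ratio of 3.13 (3.08 to 3.19). These 2 remained at least 2-fold higher when the median difference was set to 0. The other 4 were between 2.36 and 2.56 times as high. Among them, chromosome 2, 54763050 to 54764823, had 3708 RPKM in dek37 and 1448 RPKM in WT, and chromosome 4, 133103720 to 133107109, had 3435 RPKM in dek37 and 1406 RPKM in WT. Chromosome 5, 167751373 to 167752582, had 4724 RPKM in dek37 and 1937 RPKM in WT. The last, at chromosome 7, 24151509 to 24152227, had 6831 RPKM in dek37 and 2891 RPKM in WT, and it was the single short locus (719 bp) among the 6. All 6 stood alone, with no dominant locus within 1 Mb. Another 3 entries were 1.5 to 2-fold higher, a range that held 20.0% of the entries with at least 10 RPKM.

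Ranks shifted with these differences. All of the 20 highest entries of dek37 were also dominant in WT, and 14 of them had at least 2-fold less and 4 at least 2-fold more there than in WT. The entry of chromosome 9 at 22100864 was 15th in dek37 and 86th in WT, and that of chromosome 7 at 24151509 was 10th in dek37 and 36th in WT. Of the 91 entries, 69 (75.8%) kept 1000 RPKM or more in dek37, and they formed 76.7% of the 90 entries at that level there. The 22 that did not ranged down to 222 RPKM. In turn 21 entries reached 1000 RPKM in dek37 alone, and 18 of these had at least 300 RPKM in WT. The highest of the 21, chosen after its value was seen, was at chromosome 8, 171565757 to 171566487, with 3248 RPKM in dek37 and 588 RPKM in WT.

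At 18 of the 86 loci (20.9%) more than 1 entry was listed, as at 20.5% of the loci in the class below. Those 18 loci held 38 entries, 23 of them dominant. At 15 of these loci all entries had the same sign, and at 13 the differences lay within 0.3 of each other. These counts are not set beside those of loci at other levels. Since 75 of the 91 dominant entries were lower, a shared sign is in part to be awaited, and the counts are a description. Where 2 entries of a locus were dominant, which was so at 5 loci, the gap was 0.01 to 0.28. Whether entries of a locus share reads was not determined. The widest gap was at chromosome 1, 94679218 to 94684927, where the dominant entry had 1721 RPKM in dek37 and 1912 RPKM in WT (-0.15), and the minor one 16.3 RPKM in dek37 and 7.53 RPKM in WT (1.02).

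The limit of 1000 RPKM cut through a continuous range of levels. Just inside it were chromosome 3, 146602562, with 1040 RPKM in dek37 and 1003 RPKM in WT, chromosome 7, 155559747 to 155562921, with 724 RPKM in dek37 and 1036 RPKM in WT, and chromosome 1, 271106011 to 271114338, with 1726 RPKM in dek37 and 1064 RPKM in WT. Just outside were chromosome 8, 118889246 to 118891848, with 917 RPKM in dek37 and 959 RPKM in WT, chromosome 5, 68020016 to 68022909, with 1171 RPKM in dek37 and 924 RPKM in WT, and chromosome 6, 110386088 to 110389342, with 304 RPKM in dek37 and 916 RPKM in WT. On both sides of the limit, lower and higher entries stood next to each other.

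The lengths behind the RPKM could be read back for 24 of the 91 entries, where a single length within the span gave whole, even read numbers in both libraries. They were 50.1% to 99.7% of the span, with a median of 71.5%. The other 67 entries fit several lengths and were left out. Among the 24, lengths short relative to the span could not appear, because a multiple of them would also have fitted. The range and median are thus bounded by how these entries were chosen. In 3 entries the length came within 4 bases of the span: 724 of 726 bp and 721 of 723 bp for the pair on chromosome 1, and 204 of 206 bp on chromosome 4 at 159481912. Similar spans did not mean equal lengths, since the 726 bp loci of chromosome 7 at 18744943 and 18768582 had lengths of 631 and 454 bases. What these lengths stand for is not given. For the leading entry the length was 573 of 950 bp, with 216426 reads in dek37 and 683642 reads in WT.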

How the data were processed

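RNA was sequenced from endosperm of dek37 and WT kernels, 1 library each. Per the labels' protocols, RNA was extracted with Trizol and cleaned with DNase treatment before standard Illumina library preparation. Per the submitters' processing notes, Bowtie 0.12.2 was used. Not given are the build, the annotation, the counting program and the treatment of reads with several matches. The values are RPKM as the authors deposited them, per the file headers, and grouping followed the genotype label.

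The dominant entries, lists, size ranges and alternatives were chosen with earlier results of these data known. Differences are log2 ratios with a pseudocount of 1, computed on all entries, with no floor for the dominant ones. Shares called among all entries used a floor of 10 RPKM in the higher library. Since RPKM are not counts and each genotype has 1 library, no model was fitted and no p-value was computed.

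Total reads were read back as the commonest total for which an entry held 1 read over its full span, given by 137 entries in dek37 and 158 in WT. That these entries held 1 read is an assumption, and the totals and all read numbers given rest on it. Of 18762 entries above 5 RPKM in both libraries, all had a length that gave whole reads in both (relative tolerance 1e-09), never longer than the span. In all 1570 entries where the length was fixed because no multiple of it fitted the span, both read numbers were even, so 2 reads were counted as 1 fragment. Deposited starts were taken as counted from 0, because the length equalled end minus start in 34 of these entries and end minus start plus 1 in 0. Where several lengths fit, intervals used the smallest. The largest counting half-width of the 91 ratios was 26.4% and the median 3.02%. Neighbours were loci with at most 1 Mb between them.

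The entries named are the 10 highest in WT, the 4 largest changes each way, the 4 nearest to no difference, those in groups of at least 3 loci, and the 3 on either side of 1000 RPKM; others named were chosen after their values were seen. The code was tested on simulated data. Analyses used Python 3.11.15, numpy 2.4.6, pandas 2.3.3, scipy 1.17.1 and matplotlib 3.10.9.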

Additional observations from a re-analysis of the deposited data

How the results depend on the processing

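No paired analysis was possible because there is 1 library of dek37 and 1 of WT, and for the same reason no library could be left out. Pseudocounts of 0.1 and 5 changed no count by over 1.5 times. Scaling moved the ranges: with the median difference set to 0, with a trimmed mean of M values, and with equal totals of all other entries, the entries at least 2-fold higher numbered 2 each time in place of 6, and those 2.5 to 4-fold lower 21 each time in place of 33. The leading entry went from -1.73 to -2.14, -2.11 and -2.11. These scalings divided dek37 values by 1.32, 1.30 and 1.29.

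The choice of entries mattered as follows. By 1000 RPKM in dek37 (90 entries), 26 were at least 2-fold lower and 17 higher, the median was -0.17, and the share of summed RPKM was 25.1% in dek37 and 45.8% in WT. By 1000 RPKM in either library (112 entries), 17 were higher, the median was -0.64, and the shares were 26.1% in dek37 and 48.6% in WT. At 500 RPKM (175 entries), 12 were higher and 77 within 1.5-fold, with a median of -0.37 and shares of 29.0% in dek37 and 51.7% in WT. At 2000 RPKM (50 entries), 2 were higher and 6 within 1.5-fold, with a median of -1.50 and shares of 18.9% in dek37 and 43.4% in WT. With 1 entry per locus the shares were 23.1% in dek37 and 47.0% in WT. At 4-fold, 5 entries were lower and 1 higher. In recovered reads, the smallest that fit, the shares were 17.7% in dek37 and 36.0% in WT. Read shares are not fixed, because several lengths fit most of the entries. Of all reads of a library, the fitting numbers ran from 15.8% to 43.4% in dek37 and from 32.3% to 71.3% in WT.

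Against 7 groups with 23 loci, a gap of 100 kb gave 5 groups with 17 loci, and 5 Mb gave 15 with 40. At least 3 loci per group gave 3 with 15, and a limit of 500 RPKM gave 18 with 47. Where a cause is not named, it was not tested.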
